A study of Mus musculus with 2 samples.

Results

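Connective tissue mast cells of mouse dorsal skin were chosen by their own transcripts, as the cells in which the granule protease genes Cma1, Mcpt4, Tpsb2 and Cpa3 together made up at least 1% of all unique molecular identifiers (UMIs, distinct transcript molecules). At least 2 of the 4 genes had to be found, and Mcpt8 and Prss34, protease genes of basophils, had to be at 0. The rule gave 181 mast cells among 19578 kept cells, 137 of 11399 in the Ctrl library and 44 of 8179 in the AD library. The levels of these 6 genes are therefore descriptions of how the cells were found, and every other gene of the same cells was measured in the same droplets that the rule read.

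Single-cell RNA-seq was made with 10x 3′ chemistry from digested dorsal skin, with 1 library per group. Both groups were female C57BL/6J mice, 7 weeks old, depilated on the back 24 hours before the first application, with skin taken on day 10 of daily applications to a square of 2 cm per side. Ctrl mice received the vehicle alone, 100% ethanol, and AD mice received 4.5 nmol of MC903 (calcipotriol, a vitamin D analogue) per application in the same vehicle, a model of atopic dermatitis. How many mice entered a library is not given in the sources used here, and dead cells were removed from the suspensions before loading. No strain difference or transgene separates the groups, and with 1 library per group no test between them was possible. Every interval below is a 95% interval for counting error only, exact Poisson for a level, exact Clopper-Pearson for a share and exact conditional binomial for a ratio.

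Mast cells are long-lived tissue cells that depend on Kit, the receptor of stem cell factor, and store proteases, histamine and serotonin on heparin in their granules. Crosslinking of IgE on the high-affinity receptor FcεRI, which is built from an α chain (Fcer1a), a β chain (Ms4a2) and γ chains (Fcer1g), releases the granules and starts the making of cytokines and lipid mediators. In mouse skin they are mostly of the connective tissue kind, which carries chymases, tryptases and carboxypeptidase together and responds to basic peptides through Mrgprb2. IL-33, the ligand of Il1rl1 (ST2), and IL-3, which signals through Csf2rb or Csf2rb2, are among the cytokines that act on them.

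The genes that set these cells apart from the rest of the skin included well-known mast cell genes. A level here is the sum of a gene's UMIs over a library's mast cells per 1000000 UMIs of those cells (CPM), and all other kept cells of that library serve as the reference. Among 1303 genes with at least 100 CPM in both libraries, 78 stood at least 10-fold above the other cells in both, with 1 CPM added to both levels, and the 25 genes with the highest smaller fold included Mrgprb1, Ms4a2, Slc6a4, Atp8b5 and Tph1. The order within the 25 depended on the added CPM, since without it the first were Mrgprb1, Mrgprx2, Tpsab1, Tph1 and Atp8b5, while 24 of the 25 genes were shared. Mrgprb1, a Mas-related receptor, stood at 1476 CPM in Ctrl and 1547 in AD mast cells, against 0.181 and 0.276 CPM in the other cells. The serotonin transporter Slc6a4 stood at 619 and 1040 CPM, against 1.23 and 1.25 CPM. Kit stood at 1590 CPM (1450 to 1740) in Ctrl and 1650 (1448 to 1872) in AD, against 11.99 and 12.6 CPM in the other cells, and a Kit UMI was found in 126 of 137 and 35 of 44 cells. The levels of Kit, Mrgprb1, Hdc and Serpinb1a in both libraries, each within 2-fold between them, can be read in the plot of leading genes.

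**Figure D1:**
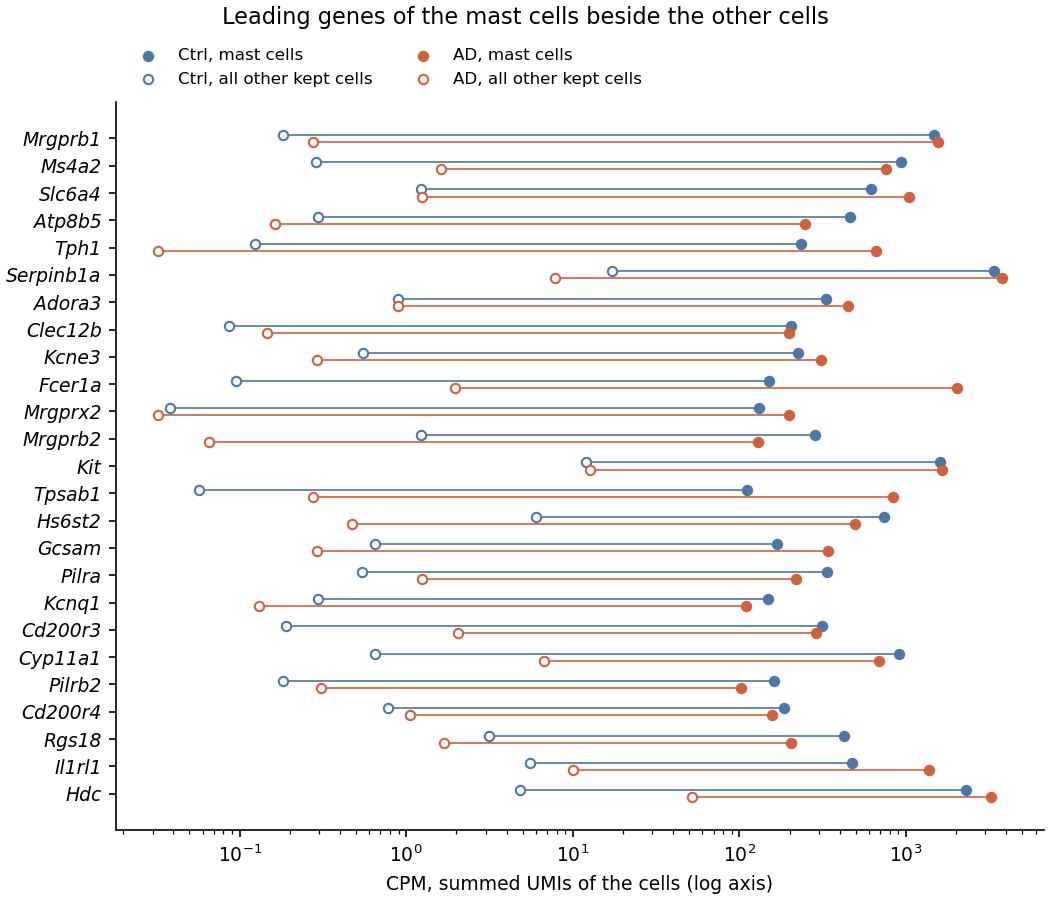
The 25 leading genes of the mast cells by the smaller of their 2 folds over the other kept cells, with filled points for the summed level in mast cells and open points for all other kept cells, in CPM on a log axis. Every filled point lies above 100 CPM, and most pairs of filled points lie close together, whereas Fcer1a and Tpsab1 sit further to the right in AD.

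The 2 libraries gave mast cells of unequal depth. The 137 Ctrl cells held 297406 UMIs in all, with a median of 1649 per cell (528 to 12932), and the 44 AD cells held 146095 UMIs, with a median of 2233 (541 to 16776). Other kept cells were deeper, at medians of 7916.5 and 6345 UMIs. The AD cells spread more widely, with 15 of 44 under 1000 UMIs against 28 of 137 in Ctrl, and the deepest AD cell alone carried 11.5% of the AD mast cell UMIs. Of the 4 protease genes, all were found in 115 of 137 Ctrl cells and in 44 of 44 AD cells. Their joint share had a median of 6.68% of a cell's UMIs in Ctrl (1.08 to 15.4) and 4.88% in AD (1.5 to 17.9). The gap around the threshold was wide in AD, where the nearest members had 1.5% and 1.62% and the nearest cells outside had 0.783% and 0.768%. In Ctrl the nearest members had 1.08% and 1.19%, and the nearest cells outside had 0.845% and 0.787%. The presence of Mcpt8 or Prss34 kept out 2 Ctrl cells and 1 AD cell. A doublet caller marked 6 of the 137 Ctrl mast cells, among them the 3 nearest to the threshold, at 1.08%, 1.19% and 1.32%, whereas in AD it marked no cell of any kind. A further 5 Ctrl barcodes and 1 AD barcode that met the rule had over 10% mitochondrial UMIs and were not kept. The libraries shared 35 barcodes, none of which was a mast cell in either.

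**Figure D2:**
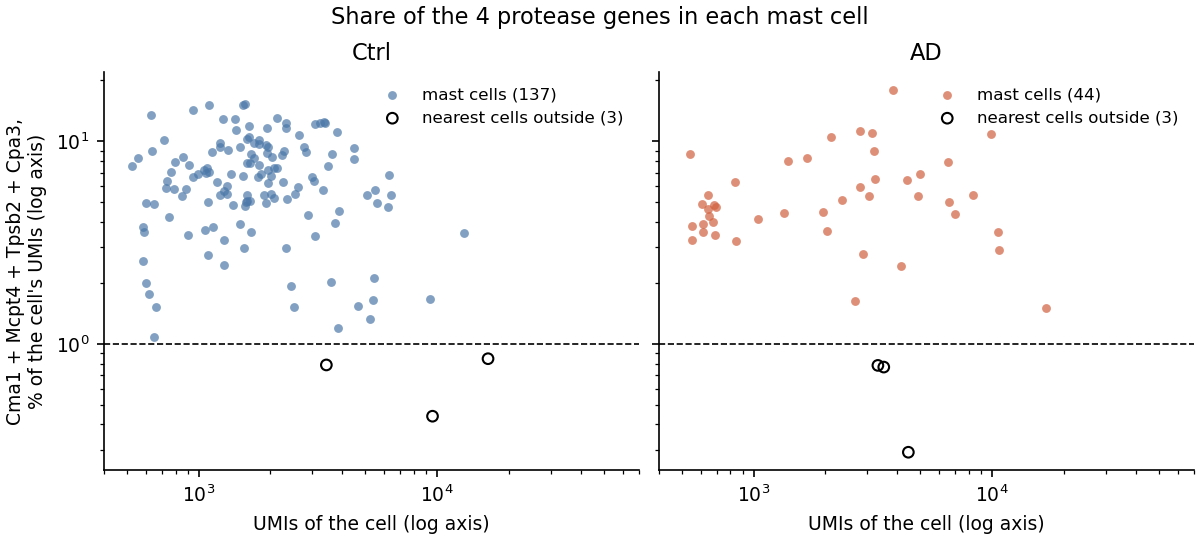
The joint share of Cma1, Mcpt4, Tpsb2 and Cpa3 in each mast cell (filled) and in the 3 nearest cells outside the rule (open) against the UMIs of the cell, both on log axes, for each library. The dashed line is the threshold of 1%, and the AD cells include a group of 15 with under 1000 UMIs.

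Mast cells made up 1.20% of kept cells in Ctrl (1.01 to 1.42) and 0.538% in AD (0.391 to 0.722). The 2 intervals do not overlap, but they cover counting error only, and with 1 library per group the number of mast cells in the skin cannot be told apart from how many survived digestion or from how many other cells were captured.

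Across the transcriptome, most genes of the mast cells stood at like levels in the 2 libraries. Of 2023 genes that reached 100 CPM in 1 library or both, the 6 genes of the rule left out, 1573 lay within 2-fold, and the median log2 ratio of AD over Ctrl was -0.03. At least 2-fold higher in AD were 219 genes (10.8%), and at least 2-fold lower were 231 (11.4%), with 1 CPM added to both levels for these counts. These shares are the background for every list below, and no gene was called changed. Of the 219 higher genes, 149 reached 100 CPM in AD alone, and of the 231 lower genes, 187 reached it in Ctrl alone, so the way in which they entered the comparison favoured a difference. The counts of a list are therefore given with how many of its genes entered so, and nothing is drawn from them. Few cells can set an AD level, since in 26 of the 219 higher genes a single AD cell held over 50% of the UMIs. Leaving out, gene by gene, the AD cell with the most UMIs of that gene left 139 of the 219 at least 2-fold higher.

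**Figure D3:**
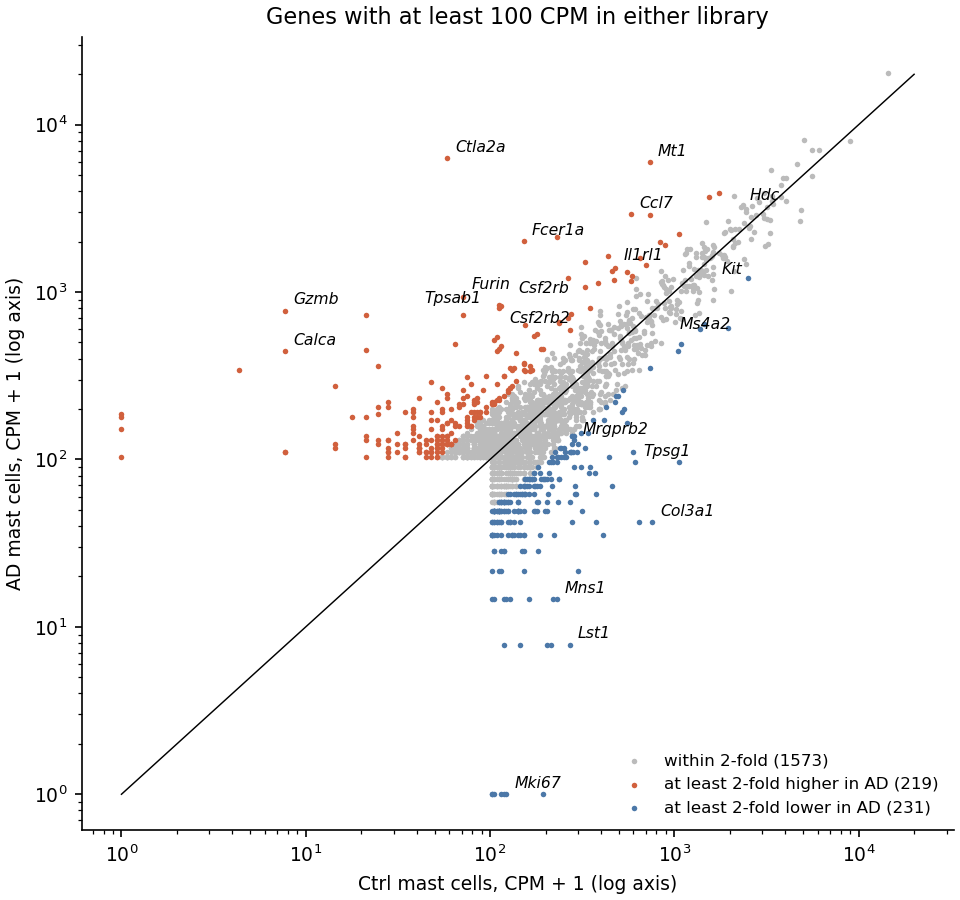
Level of each of the 2023 genes in Ctrl mast cells (x axis) and in AD mast cells (y axis), in CPM with 1 added, on log axes, with the line of equal levels. Kit, Ms4a2 and Hdc lie near the line, Ctla2a, Fcer1a and Mt1 lie above it, and Tpsg1, Lst1 and Mns1 lie below it.

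Of 16 identity genes compared, Fcer1a and Il1rl1 were at least 2-fold higher in AD and Mrgprb2 was lower, the last not when cells were thinned to 1000 UMIs. The widest gap among the identity genes lay in 1 subunit of the IgE receptor. Fcer1a (ENSMUSG00000005339, chromosome 1, 173221269 to 173227232 in GRCm38.p6), the α chain that binds IgE, stood at 151 CPM (110 to 202) in Ctrl, with 45 UMIs, and at 2019 CPM (1795 to 2263) in AD, with 295 UMIs. The log2 ratio was 3.74 (3.28 to 4.22). A Fcer1a UMI was found in 21 of the 137 Ctrl cells and in 33 of the 44 AD cells, against 0.0533% and 0.455% of the other cells. When 500 UMIs were drawn from every mast cell, which left no cell out, the expected shares were 5.26% and 55.3%. Without the AD cell that had the most Fcer1a UMIs, 62 of the 295, the log2 ratio was 3.48. The β chain Ms4a2 had an interval that included no difference, at 931 CPM (825 to 1048) and 760 CPM (625 to 915), with a log2 ratio of -0.29 (-0.62 to 0.03). The γ chain Fcer1g stood at 2609 and 2060 CPM. Both partner chains were found in a smaller share of AD cells, Ms4a2 in 101 of 137 and 23 of 44, Fcer1g in 123 and 30. After the draw of 500 UMIs, the expected shares for Ms4a2 were 36.3% and 22.6%. As a mean over cells, Ms4a2 stood at 1036 and 575 CPM and Fcer1g at 2756 and 1788 CPM. So the summed level of Fcer1a was 13.3-fold higher in AD, while those of its 2 partner chains were lower but within 2-fold.

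The stretches just before the RefSeq start of Fcer1a, chr1:173227233-173227479, and of its partner Ms4a2, chr19:11623791-11623969, both on the minus strand of GRCm38.p6, are shown because the 2 subunits stood so differently between the libraries. Capitals mark GATAA or its reverse complement, letters that GATA factors are known to bind.
Fcer1a: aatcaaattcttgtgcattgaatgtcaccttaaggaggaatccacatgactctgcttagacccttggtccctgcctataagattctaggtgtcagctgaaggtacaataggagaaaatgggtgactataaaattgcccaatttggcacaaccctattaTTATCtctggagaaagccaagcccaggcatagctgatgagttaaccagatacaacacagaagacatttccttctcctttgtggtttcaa
Ms4a2: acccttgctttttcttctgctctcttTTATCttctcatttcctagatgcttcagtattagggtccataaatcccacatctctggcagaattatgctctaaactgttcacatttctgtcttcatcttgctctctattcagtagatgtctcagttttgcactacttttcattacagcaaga
Each stretch held 1 such match, and the Fcer1a stretch also held 1 match of CANGTG, an E-box. The printed stretches were cut where the annotated gene begins, to 247 bases for Fcer1a and 179 for Ms4a2. The counts that follow used the first 250 bases of each promoter entry uncut, which can run into the gene. There, GATAA on either strand was found in 11 of 24 promoters of the leading and rule genes that had a RefSeq entry (45.8%), and in 23.0% of 27025 promoters of all genes. CANGTG was in 5 of these 24 (20.8%) and in 39.4% of all. TTCNNNGAA, the letters of a STAT site, was in 0 of 24 and in 7.18% of all. The leading genes were ranked in these same data, the shares were not tested, and nothing is drawn from them. Gata2 itself stood at 1217 CPM in Ctrl and 1814 in AD, and Mitf, another factor of the lineage, at 313 and 212 CPM.

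Ctla2a, an inhibitor of cathepsin-like cysteine proteases, was found in nearly all AD mast cells and in few Ctrl mast cells. It stood at 57.2 CPM (33.3 to 91.5) in Ctrl, with 17 UMIs in 12 cells, and at 6318 CPM (5917 to 6739) in AD, with 923 UMIs in 40 of 44 cells. The log2 ratio was 6.79 (6.10 to 7.57). A single AD cell held 371 of the 923 UMIs, and without it the log2 ratio was 6.07. The gene was also present in other cells, at 50.2 CPM in Ctrl and 319 in AD, so AD mast cells stood 19.8-fold above their neighbours and Ctrl mast cells 1.14-fold. In macrophages, taken as cells with C1qa, C1qb and C1qc at 0.2% of their UMIs or more, it stood at 10.3 and 53.4 CPM. After the draw of 500 UMIs, the expected share of mast cells with Ctla2a was 2.25% in Ctrl and 72.1% in AD. Its close copy Ctla2b, with which reads could be shared, had 1 UMI in each library.

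Fcer1a or Ctla2a, or both, were found in nearly every AD mast cell. The 2 genes were taken up with their high ratios of AD over Ctrl in these same cells already known. A gap between the libraries was therefore built into the choice. The counts describe how their UMIs were spread over cells, with 1 library per group, and add no separate evidence of a difference. At least 1 of the 2 genes was found in 42 of the 44 AD cells and in 31 of the 137 Ctrl cells. Both were found in 31 AD cells and 2 Ctrl cells. Ctla2a was found in 15 of the 15 AD cells under 1000 UMIs and in 25 of the 29 deeper ones. Fcer1a was found in 13 and 20 of these cells, and both genes in 13 and 18. In the 28 Ctrl cells under 1000 UMIs, 0 had Ctla2a and 3 had Fcer1a.

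**Figure D4:**
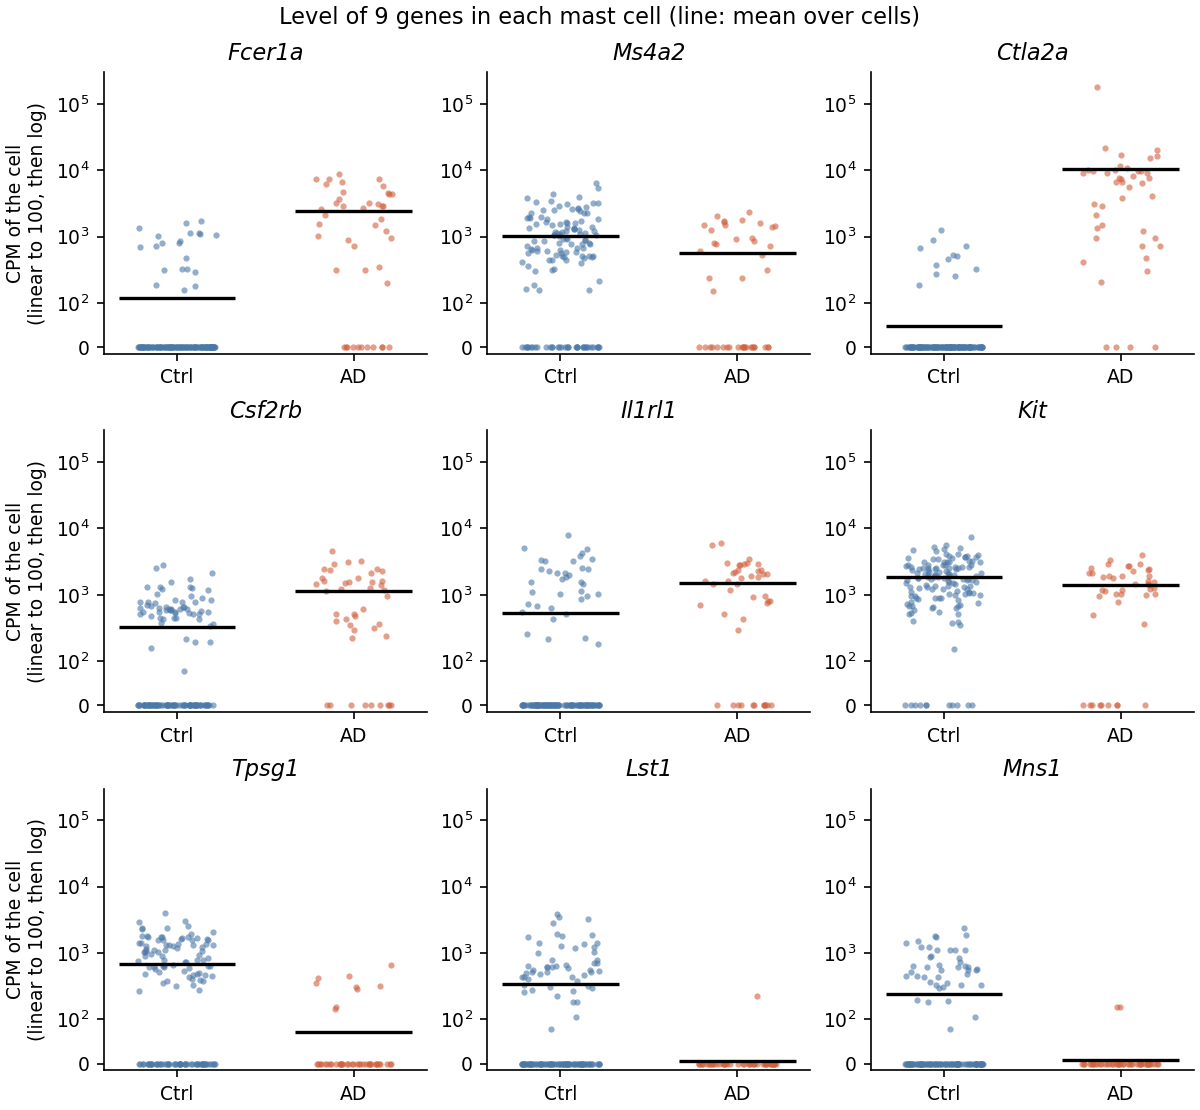
Level of 9 genes in each mast cell, in CPM of that cell, for the 137 Ctrl cells and the 44 AD cells, on an axis that is linear to 100 and logarithmic above, with the mean over cells as a line. AD cells sit higher for Fcer1a, Ctla2a, Csf2rb and Il1rl1, the cells overlap for Ms4a2 and Kit, and most AD cells are at 0 for Tpsg1, Lst1 and Mns1. Most Ctrl cells are also at 0 for Lst1 and Mns1, found in 53 and 44 of 137, but not for Tpsg1, found in 82.

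The 4 genes that chose the cells encode granule proteases. Cma1, the chymase of connective tissue mast cells, stood at 21983 CPM in Ctrl and 18810 in AD, and Mcpt4, the other main chymase, at 25383 and 17776 CPM. Cpa3, mast cell carboxypeptidase, stood at 12367 and 12649 CPM, and the tryptase Tpsb2 at 4438 and 7016 CPM. In single cells these levels ran for Mcpt4 from 3030 to 76433 CPM in Ctrl (median 25157) and from 2879 to 60827 CPM in AD (median 12946). Since these genes chose the cells, their levels are given without a comparison.

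The chymase locus on chromosome 14 holds genes of this family that had few UMIs or none in these cells. In order along GRCm38.p6 it holds Cma1 (55941451 to 55944675), Cma2, Mcpt1, Mcpt2, Mcpt9, Mcpt4 (56059744 to 56062310), Mcpt8, Ctsg and, further on, Gzmb (56258836 to 56262334). Mcpt1, the chymase of mucosal mast cells, and Mcpt9 were at 0 in both libraries. Mcpt2 had 3 UMIs in Ctrl and 1 in AD, and Cma2 had 8 and 6. Ctsg, cathepsin G, had 22 UMIs in 9 Ctrl cells and 0 in AD, at least 3.6-fold lower with 3 UMIs over the AD cells as the floor. Genes of this family are alike in sequence, so reads may have been split between them.

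The bases just before Cma1, chr14:55944676-55944925, Mcpt4, chr14:56062311-56062560, and Cpa3, chr3:20242210-20242431, all on the minus strand of GRCm38.p6 and taken from RefSeq, are shown because these genes define the cells. Capitals again mark GATAA or its reverse complement.
Cma1: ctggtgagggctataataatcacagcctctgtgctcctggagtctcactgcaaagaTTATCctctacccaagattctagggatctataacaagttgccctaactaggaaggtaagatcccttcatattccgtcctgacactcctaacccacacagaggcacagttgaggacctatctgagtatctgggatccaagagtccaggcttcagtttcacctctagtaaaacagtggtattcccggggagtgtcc
Mcpt4: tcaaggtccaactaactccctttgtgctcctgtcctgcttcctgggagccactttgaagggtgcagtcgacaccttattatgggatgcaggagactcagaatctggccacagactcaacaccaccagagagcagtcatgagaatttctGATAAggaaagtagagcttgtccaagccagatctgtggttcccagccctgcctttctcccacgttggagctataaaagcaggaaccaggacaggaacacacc
Cpa3: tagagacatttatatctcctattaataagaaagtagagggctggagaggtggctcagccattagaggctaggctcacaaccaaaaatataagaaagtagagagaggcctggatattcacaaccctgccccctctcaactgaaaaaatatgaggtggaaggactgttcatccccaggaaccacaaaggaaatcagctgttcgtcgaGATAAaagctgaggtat
Each of these 3 stretches held 1 match, and no match of CANGTG or TTCNNNGAA was found in these windows. Tpsb2 was matched to no entry of the promoter table.

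The tryptase genes on chromosome 17 differed in direction. Tpsg1 (25369195 to 25374442), a membrane-anchored tryptase, stood at 612 CPM (526 to 708) in Ctrl and 95.8 (52.4 to 161) in AD, a log2 ratio of -2.67 (-3.57 to -1.89), and was found in 82 of 137 and 9 of 44 cells. Its share after the draw of 500 UMIs was 28.2% and 3.39%. Tpsab1 (25343245 to 25345562), which RefSeq lists as a transcribed pseudogene on this assembly, stood at 111 CPM in Ctrl and 835 in AD, a log2 ratio of 2.91 (2.35 to 3.51), in 12 and 23 cells. Tpsab1 and Tpsb2 are close copies, so their split is uncertain. Of the 23 genes in the list of granule proteases and inhibitors, 12 could be compared, 3 were at least 2-fold higher, namely Tpsab1, Gzmb and Cst3, and 1 was lower, Tpsg1, with a median log2 ratio of 0.20. Gzmb reached 100 CPM in AD alone and Tpsg1 in Ctrl alone. Of the 117 UMIs of the protease inhibitor Cst3 in AD, 72 lay in the deepest cell, and without it the log2 ratio was 0.01. Serpinb1a, an inhibitor of neutrophil-type serine proteases, stood at 3376 and 3751 CPM, and the lysosomal protease Ctsd at 783 and 507 CPM.

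Gzmb, granzyme B, rested on a single cell. It had 2 UMIs in Ctrl and 113 in AD, and 112 of the 113 lay in 1 of the 44 cells. That cell had 6593 UMIs, 14 of Kit, 78 of Cma1 and 18 of Fcer1a, and it also held 36 of the 40 Ccl4 UMIs, 23 of the 26 Ccl3 UMIs and 23 of the 63 Nr4a2 UMIs of the AD mast cells. Its doublet score was not among the highest 5% of the library. Calca, the precursor of calcitonin gene-related peptide, had 2 UMIs in Ctrl and 65 in AD, a log2 ratio of 6.05 (4.14 to 9.12), and 50 of the 65 lay in 1 of 7 positive cells.

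Genes for heparin, histamine and serotonin stood at like levels, apart from 2. Srgn, the serglycin core protein, stood at 3890 CPM in Ctrl and 4798 in AD, and Hdc, which makes histamine, at 2300 CPM (2131 to 2479) and 3238 CPM (2952 to 3543). The vesicular transporter Slc18a2, which loads amines into granules, stood at 488 and 281 CPM. Hs3st1, a heparan sulphate 3-O-sulfotransferase, was higher, at 155 CPM in Ctrl and 637 in AD, a log2 ratio of 2.04 (1.52 to 2.58), in 34 of 137 and 26 of 44 cells. Tph1, which makes serotonin, stood at 235 and 664 CPM, for which the interval of the log2 ratio was 1.04 to 1.96, in 36 and 18 cells, but its log2 ratio was 0.82 as a mean over cells and 0.83 in cells thinned to 1000 UMIs, under 2-fold. In the list of 17 genes, 10 could be compared, and Hs3st1 and Tph1 were the 2 past 2-fold. Genes of lipid mediators were sparse, with Hpgds, the prostaglandin D2 synthase, at 326 and 294 CPM and Ptgs2 at 121 and 116 CPM, while Alox5 and Alox5ap, of the leukotriene pathway, had 5 UMIs each in Ctrl and 0 in AD. The like level of Ptgs2 depended on the setting, with a log2 ratio of 1.37 at a rule threshold of 2% and 2.47 as a mean over cells, both with 1 CPM added.

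Cytokine receptors stood on both sides. Of 11 compared, 5 were higher and 3 lower, with a median log2 ratio of 0.96 beside -0.03 over all genes, and 1 of the 5 (Il4ra) and 1 of the 3 (Il6ra) reached 100 CPM in that library alone. The ST2 chain Il1rl1 stood at 474 CPM (399 to 559) in Ctrl and 1383 (1199 to 1587) in AD, a log2 ratio of 1.54 (1.23 to 1.86), and was found in 37 of 137 and 33 of 44 cells. Its expected share after the draw of 500 UMIs was 15.6% and 49.1%. In the cell with the highest level it reached 7874 CPM in Ctrl and 6063 in AD, so the highest cells of the libraries overlapped.

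The common β chains of the IL-3 family receptors followed. Csf2rb stood at 326 CPM (264 to 398) and 1075 CPM (913 to 1257), with log2 ratio 1.72 (1.35 to 2.10), in 59 of 137 and 35 of 44 cells. Csf2rb2, a mouse-specific copy that pairs with the IL-3 receptor, stood at 114 and 821 CPM (log2 ratio 2.84, 2.29 to 3.44), in 25 and 21 cells, and without the AD cell that held 48.3% of its UMIs the log2 ratio was 2.00. These 2 genes are close copies and may share reads. Il3ra, the IL-3 specific chain, had 17 and 9 UMIs. Il4ra stood at 67.2 and 212 CPM (log2 ratio 1.66, 0.80 to 2.55), and in the other cells at 65.2 and 167 CPM. Il7r, a chain of the TSLP receptor, stood at 118 and 315 CPM (log2 ratio 1.42, 0.75 to 2.10). Its partner Crlf2 had 10 UMIs in each library, out of 297406 mast cell UMIs in Ctrl and 146095 in AD, so its level was also higher in AD, on few UMIs.

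The 3 lower receptors were Ifnar2, Tgfbr2 and Il6ra. Ifnar2, of the type I interferon receptor, stood at 296 CPM in Ctrl and 110 in AD, a log2 ratio of -1.43 (-2.30 to -0.66). Tgfbr2 stood at 276 and 123 CPM and Il6ra at 155 and 61.6 CPM. In the other cells these genes were higher in AD, with Ifnar2 at 48.8 and 71.5 CPM, Tgfbr2 at 368 and 494 CPM and Il6ra at 84.3 and 126 CPM.

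Of 9 transcripts of the JAK-STAT pathway and its feedback that could be compared, 5 were higher and 1 was lower, with a median log2 ratio of 1.06. Of the 5, Socs1, Socs3 and Osm reached 100 CPM in AD alone, which leaves Stat3 and Pim1, and the lower gene, Stat5b, reached it in Ctrl alone. Socs1, a feedback inhibitor, stood at 26.9 and 219 CPM (log2 ratio 3.03, 1.88 to 4.35), although 1 AD cell held 40.6% of its UMIs. Socs3 stood at 70.6 and 260 CPM, the kinase Pim1 at 235 and 650 CPM, and Stat3 at 128 and 267 CPM. All 4 were also higher in the other cells of the AD library, Socs1 at 28.6 and 58.0 CPM, Socs3 at 366 and 2067 CPM, Pim1 at 370 and 1203 CPM and Stat3 at 222 and 486 CPM. Stat5b, which acts downstream of Kit and the IL-3 receptor, stood at 101 and 41.1 CPM (log2 ratio -1.30, -2.85 to -0.01). Jak1 lay within 2-fold, at 330 and 219 CPM, and Socs2 at 383 and 657 CPM.

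Among cytokines and chemokines, 6 of 12 compared were higher and 0 lower, with a median log2 ratio of 1.18, but 5 of the 6 (Il6, Osm, Vegfa, Ccl3 and Ccl4) reached 100 CPM in AD alone. Of the 6 genes at that level in both libraries, Ccl7 was the 1 past 2-fold. The type 2 cytokines Il4 and Il13 were not among the 6. Il4 stood at 313 CPM (252 to 383) in Ctrl and 383 (290 to 498) in AD, in 54 of 137 and 22 of 44 cells, and Il13 at 70.6 and 137 CPM (log2 ratio 0.96, -0.00 to 1.91). Il5, Il9, Il31 and Il10 were at 0 in both. Ccl7, a chemokine for monocytes, stood at 578 CPM (495 to 672) and 2916 CPM (2646 to 3206), with log2 ratio 2.33 (2.08 to 2.60), in 47 and 23 cells. Other cells also had Ccl7, at 327 and 1328 CPM, with a UMI in 33.4% and 52.9% of them, and the mast cell shares of 34.3% and 52.3% lie close to these. The other cells were deeper, and how much of the Ccl7 in mast cells was free RNA was not tested. Ccl2 stood at 790 and 883 CPM, Tnf at 235 and 192 CPM and Csf1 at 303 and 390 CPM. Il6 stood at 30.3 and 144 CPM and Vegfa at 70.6 and 233 CPM, with 127 and 576 CPM and 71.2 and 174 CPM in the other cells. Osm, at 40.3 and 110 CPM, differed from these in that the other cells had only 1.68 and 25.4 CPM.

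Receptors that start or restrain degranulation showed no common direction. Of 17 compared in the list of surface receptors, 3 were higher (Fcer1a, Lilrb4b and Itga2), 3 were lower (Mrgprb2, Cd33 and Milr1, the last 2 at 100 CPM in Ctrl alone) and the median log2 ratio was 0.05. Mrgprb2, the receptor for basic secretagogues, stood at 286 CPM (228 to 353) and 130 CPM (78.3 to 203), with log2 ratio -1.14 (-1.94 to -0.41), in 55 and 12 cells, but at -0.93 when thinned to 1000 UMIs it was under 2-fold, whereas Mrgprb1, also on chromosome 7, lay within 2-fold and Mrgprx2 stood at 131 and 199 CPM. Lilrb4b stood at 269 and 596 CPM. Cd33, an inhibitory siglec, stood at 131 and 34.2 CPM, and Milr1, known as allergin-1 and also inhibitory, at 145 and 61.6 CPM. Adora3, an adenosine receptor that augments degranulation, stood at 333 and 452 CPM. The receptor genes Cd200r3, at 313 and 287 CPM, and Clec12b, at 205 and 199 CPM, lay within 2-fold.

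Genes of signalling downstream of FcεRI and of the lineage factors mostly lay within 2-fold, with 17 of 23 there, 3 higher, of which Bhlhe40 reached 100 CPM in AD alone, and 3 lower. The kinases Lyn, at 171 and 164 CPM, and Btk, at 128 and 82.1 CPM, and the adaptor Lat2, at 437 and 329 CPM, were among them. Rgs1, a regulator of G protein signals, stood at 1537 and 3696 CPM and the factor Cebpb at 178 and 561 CPM. Prkcb, protein kinase C β, stood at 299 and 123 CPM (log2 ratio -1.28, -2.10 to -0.54), and the factors Meis2 and Fli1 at 326 and 116 CPM and at 252 and 103 CPM. Rgs18, which is among the 25 leading genes, had 427 and 205 CPM, with a log2 ratio of -1.06, but this was 0.036 in cells thinned to 1000 UMIs and under 2-fold in 4 other settings.

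Immediate early genes, which rise during tissue digestion in many protocols, were high in both libraries. Fos stood at 6109 CPM in Ctrl and 7084 in AD mast cells, against 2456 and 4917 CPM in the other cells, and Jun at 8974 and 7981 CPM. Of 29 genes compared in the list of immediate early and heat shock genes, 6 were higher, 1 of them at 100 CPM in AD alone, 2 lower and 21 within 2-fold. The higher ones included the NF-κB feedback genes Nfkbia, at 1755 and 3888 CPM, and Tnfaip3, at 1056 and 2211 CPM, and the lower ones were the chaperones Hsp90aa1, at 2502 and 1218 CPM, and Hsph1, at 521 and 192 CPM. Atf3, Ier3 and Nr4a2 were higher by sum, but the cell with the most UMIs of each held 63.7%, 59.5% and 36.5% of its AD UMIs, and the cell richest in Nr4a2 had 0 UMIs of Atf3.

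The metallothionein genes Mt1 and Mt2, chosen after their values were seen, and the ranked genes Slc7a8 and Furin are given next to their levels in the other cells. Mt1, a zinc-binding protein, stood at 733 CPM (639 to 837) and 5996 CPM (5606 to 6407), with log2 ratio 3.03 (2.82 to 3.25), and was found in 74 of 137 and 44 of 44 cells. The same gene stood at 1170 and 8057 CPM in the other cells, which had a UMI in 76.6% and 96.0%. Mt2 stood at 262 and 1212 CPM. Slc7a8, an amino acid transporter, stood at 70.6 and 732 CPM in mast cells, a log2 ratio of 3.37 (2.69 to 4.12), and at 16.4 and 15.5 CPM in the other cells, and it was found in 16 of 137 and 30 of 44 mast cells. Furin, a proprotein convertase, stood at 70.6 and 931 CPM (log2 ratio 3.72, 3.05 to 4.46), in 20 and 26 cells, against 56.0 and 87.2 CPM in the other cells. Both genes were also found in the basophil-rule cells described below, Furin at 649 CPM (14 UMIs) and 1310 CPM (200 UMIs) and Slc7a8 at 46.4 CPM (1 UMI) and 275 CPM (42 UMIs).

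The remaining genes at the top of the ranking rested on few AD cells. The ranking took the 596 genes that stood at least 2-fold above the other cells in the library where they were higher, a condition that did not ask for the same in the other library, and the 12 highest were Tmem252, Gm4847, Ctla2a, Flt1, Gzmb, Calca, Tm4sf1, Rnf125, Fcer1a, Furin, Slc7a8 and Gm11697. Of these 12, Calca, Fcer1a, Slc7a8 and Gm11697 met it in both libraries and the other 8 in AD alone. Tmem252, Flt1 and Tm4sf1, known from vessel cells, had 26 of 27, 15 of 15 and 66 of 66 of their AD UMIs in the deepest AD cell. That cell had 16776 UMIs and 4176 genes, a protease share of 1.5%, 10 UMIs of the endothelial marker Pecam1, 52 of the fibroblast gene Dcn and a doublet score in the highest 5%. Without it, Tm4sf1 had no UMI in AD, against 6 UMIs in 4 Ctrl cells, so its log2 ratio of 4.48 rests on that cell. Gm4847 had 16 of 22 UMIs in 1 of 3 cells. Gm11697, at 16.8 and 178 CPM in 5 and 15 cells, and Rnf125, a ubiquitin ligase, at 6.72 and 110 CPM in 2 and 9 cells, were spread more widely, with a log2 ratio of 4.03 (1.94 to 7.19) for Rnf125. Among all 2023 genes, the 5 highest were Tmem252, Ccl3, Gm4847, Ctla2a and Flt1. Ccl3 had 0 UMIs in Ctrl and 26 in AD, at least 17.6-fold higher with 3 UMIs over the Ctrl cells as the floor. Of the 26, 23 lay in 1 cell, without which Ccl3 stood at 21.5 CPM in AD. The other cells had Ccl3 at 28.6 and 303 CPM, and the basophil-rule cells described below at 33066 and 40018 CPM.

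The 12 lowest genes of the same ranking were each found in 17 to 82 Ctrl cells. They were H2ac24, Retreg1, Tubb2b, Lst1, Mns1, Poln, Pcp4l1, Fam111a, Tpsg1, Ncam1, Rab37 and Cbfa2t3. Mns1, Poln, Pcp4l1, Tpsg1, Ncam1 and Rab37 stood at least 2-fold above the other cells in both libraries and the other 6 in Ctrl alone. Lst1, a small leukocyte membrane protein, had 80 UMIs in 53 of 137 Ctrl cells and 1 UMI in 44 AD cells, 269 and 6.84 CPM (log2 ratio -5.30, -10.6 to -2.78), and in the other cells it stood at 7.81 and 3.59 CPM. It was lower in AD in macrophages too, at 211 and 44.5 CPM, and in the basophil-rule cells, at 92.8 CPM (2 UMIs) and 0. Mns1 had 68 UMIs in 44 Ctrl cells and 2 in AD, a log2 ratio of -4.06 (-7.14 to -2.15), and stood at 11.6 and 2.65 CPM in the other cells. Retreg1, a receptor for the degradation of endoplasmic reticulum, had 35 UMIs in 27 Ctrl cells and 0 in AD, at least 5.73-fold lower, whereas the other cells had it at 43.3 and 73.6 CPM. Tubb2b, a tubulin, had 34 UMIs in 30 Ctrl cells and 0 in AD, at least 5.57-fold lower, and was lower in the other cells too, at 32.7 and 13.2 CPM. Rab37, known from mast cell granules, had 34 UMIs in Ctrl and 3 in AD, a log2 ratio of -2.48 (-4.82 to -0.81), and the adhesion molecule Ncam1 stood at 377 and 61.6 CPM, against 100.4 and 20.7 CPM in the other cells. The replication-dependent histone H2ac24, with near-identical copies, had 57 UMIs in 17 Ctrl cells and 0 in AD, and stood at 65.7 and 12.6 CPM in the other cells. Among all 2023 genes, the 5 lowest were H2ac24, Mki67, Retreg1, Tubb2b and Top2a.

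Some of the lower genes belong to the cell cycle. Mki67 had 36 UMIs in 14 Ctrl cells and 0 in AD, and Top2a had 31 UMIs in 8 Ctrl cells and 0 in AD. At least 2 of the 7 genes Mki67, Top2a, Cdk1, Ccnb1, Ccnb2, Birc5 and Ube2c were found in 9 of 137 Ctrl cells (6.57%, 3.05 to 12.1) and in 0 of 44 AD cells (0 to 8.04), where 3 counts of the total would be 6.82%. A difference in that share was therefore not detectable at this number of cells. The same genes were also lower in the other cells of AD, with Mki67 at 207 and 20.2 CPM and Top2a at 156 and 12.7 CPM. The 9 Ctrl cells were deep, with a median of 3316 UMIs against 1612.5 in the rest. Of 5 cell cycle genes compared, 3 were lower (Mki67, Top2a and Stmn1), each having reached 100 CPM in Ctrl alone, and Pcna, at 212 and 226 CPM, was not among them.

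Presentation and vitamin D genes gave little. MHC class II genes were near the floor, with 7 UMIs of Cd74 in Ctrl and 0 in AD, and the class I genes H2-K1 and H2-D1 lay within 2-fold, with B2m at 1490 and 2615 CPM. None of the 5 genes compared in that list was past 2-fold. Of the 8 genes of the vitamin D response, none reached 100 CPM. Vdr had 4 UMIs in Ctrl and 0 in AD, and Cyp24a1, its classic target, had 0 in both, so no response to MC903 through these genes could be measured in the mast cells.

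**Figure D5:**
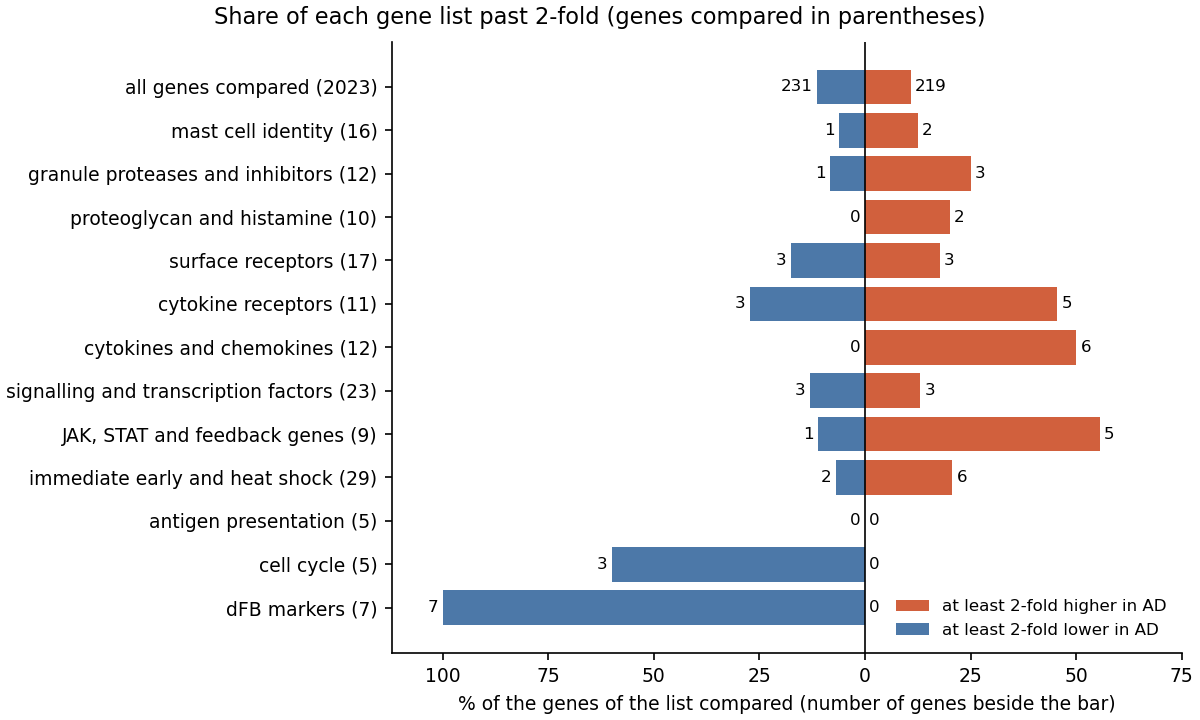
Share of the genes compared that were at least 2-fold higher (right) or lower (left) in AD mast cells, with the number of genes beside each bar and the number compared in parentheses, for each cell function or dFB list with at least 5 genes compared and for all 2023 genes. Among the lists drawn, cytokine receptors, cytokines and the JAK-STAT list reach furthest to the right, and cell cycle genes and dFB markers furthest to the left.

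RNA of other cell types was present and differed between the libraries. The 8 markers of dermal fibroblasts (dFBs) summed to 5141 CPM in Ctrl mast cells and 993 CPM in AD mast cells, with Dcn the most abundant at 1439 and 643 CPM, and 7 of 7 compared were at least 2-fold lower, 6 of them having reached 100 CPM in Ctrl alone. Of the 145 UMIs of these markers in AD, 52 were Dcn UMIs of the deepest cell. In the other cells the same markers summed to 32414 and 8811 CPM, so the mast cells held 15.9% and 11.3% of that level. Markers of keratinocytes (KCs) summed to 296 and 61.6 CPM, with Krt10 the most abundant in Ctrl and Krt14 in AD. Macrophage markers summed to 26.9 and 34.2 CPM, with C1qb and C1qc at 0 in both, and T cell markers to 13.4 and 27.4 CPM. Endothelial markers summed to 20.2 and 199 CPM, led in AD by the deepest cell. Neutrophil markers had 0 UMIs in Ctrl and 6 in AD, dendritic cell markers 0 in both, and pericyte markers 18 and 0. Erythroid markers summed to 87.4 and 54.8 CPM, muscle markers to 10.1 CPM in Ctrl and 0 in AD, and Schwann cell and melanocyte markers to 43.7 CPM in Ctrl and 0 in AD. The ILC2 list had 1 gene to compare, Il7r, and the basophil list had 4, of which Ccl3 and Itga2 were higher and Cd200r3 and Il4 lay within 2-fold. The part of this RNA in the ratios above was not tested.

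Basophils share the IgE receptor and many genes with mast cells, so they were set beside them. Cells with Mcpt8 and Prss34 at 0.1% of their UMIs or more and the 4 rule genes under 1% numbered 8 in Ctrl and 24 in AD. They had no Kit UMI in either library. In Ctrl they had Fcer1a at 92.8 CPM with 2 UMIs, Ms4a2 at 278 CPM with 6 UMIs, Csf2rb at 1670 CPM with 36 UMIs and no Il1rl1 UMI. In AD they had Fcer1a at 426 CPM, Ms4a2 at 288 CPM, Il1rl1 at 485 CPM, Csf2rb at 1336 CPM and Hdc at 6693 CPM, against 2019, 760, 1383, 1075 and 3238 CPM in the AD mast cells. Fcer1a and Il1rl1 thus stood higher in AD in these cells as well, on few Ctrl UMIs, and Ms4a2 stood at like levels. Il4 stood at 1958 CPM in these AD cells and at 383 CPM in AD mast cells, and Ctla2a at 78.6 CPM, with 12 UMIs, and at 6318 CPM. Gzmb, found in 2 AD mast cells, stood at 1299 CPM in the 8 Ctrl and 792 CPM in the 24 AD basophil-rule cells. With Mcpt8 and Prss34 at 0 by the rule, these genes say nothing about basophil RNA in the mast cells.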

How the data were processed

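The authors deposited raw counts, whole numbers of UMIs per gene and barcode, without normalization. The submitters' notes name Cell Ranger 3.1.0, Seurat 5.0 and mm10, and the matrix headers name Cell Ranger 5.0.0. Reads were not analysed here. The filter on cells kept those in which 200 to 6000 genes were found and mitochondrial UMIs did not pass 10%, as in the study's methods. Members were selected on Cma1, Mcpt4, Tpsb2 and Cpa3, and the members and gene lists were chosen with earlier results of these data known. UMIs were summed over the mast cells of a library, as CPM (297406 and 146095 UMIs in all). The unit of comparison was the library, 1 per group, so no test was run and samples were not replicated. Ratios of AD over Ctrl have no CPM added, whereas counts past 2-fold, alternatives and folds over the other cells that set the rankings have 1 CPM added. Genes were named from the fixed lists, as the 12 highest and 12 lowest ratios among genes 2-fold above the other cells in the library where they were higher, as the 5 highest and 5 lowest without that condition, and as the 25 leading over the other cells. The names of the study's clusters were not used. Shares after drawing 500 UMIs per cell were computed as expectations.

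Doublets were kept. Scrublet (scanpy 1.11.5) marked 395 of 11399 Ctrl cells at a threshold of 0.193 and 0 of 8179 AD cells at 0.601. Why it marked none in AD was not tested, and leaving out the cells with the 5% highest scores (10 Ctrl and 1 AD mast cells) took its place. The ratio and interval functions were checked on simulated data for AD over Ctrl, in which 200 of 2023 genes were changed by a log2 of 2. Of the intervals, 95.7% held the true value. The simulated sums were Poisson draws, the counting error that the intervals assume, without spread between cells. The check therefore covers the functions only, and not how well the intervals hold where single cells carry much of a gene. Alternatives were the rule's thresholds, Kit, the filter on cells, the total, depth, averaging, pseudocount and level minimum. Promoters and gene positions are from RefSeq on GRCm38.p6. The study's methods name another Cell Ranger release and a 10x mm10 reference, and which run and annotation made the deposited files was not settled here. Python 3.11.15, numpy 2.4.6, scipy 1.17.1, pandas 2.3.3, anndata 0.12.19 and matplotlib 3.10.9 were used.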

Additional observations from a re-analysis of the deposited data

How the results depend on the processing

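The numbers of mast cells in Ctrl and AD kept within 1.5 times of the reported ones under rule thresholds of 0.5% and 2%, 3 of 4 genes found, a Kit UMI, all deposited barcodes and no condition on Mcpt8 and Prss34, whereas at least 500 genes and 1000 UMIs per cell gave 29 AD mast cells, 0.989% of kept cells in Ctrl and 0.378% in AD. The counts of genes at least 2-fold higher and lower were 420 and 347 with the mean over cells of each cell's CPM, 620 and 430 in cells thinned to 1000 UMIs, 432 and 637 with at least 50 CPM, and 106 and 84 with at least 200 CPM. Of the genes compared, 19.0% were higher and 15.7% lower with the mean over cells and 24.3% and 16.8% when thinned, against 10.8% and 11.4%, so the background share itself moved and the cause was not tested. With at least 50 CPM, 16.1% were lower. Thinning also put the median log2 ratio of all genes at 0.21 in place of -0.03. The log2 ratios of this paragraph have 1 CPM added. Of 74 named genes, 12 crossed 2-fold in at least 1 alternative (Atp8b5, Clec12b, Cyp11a1, Flt1, Gcsam, Il13, Mrgprb2, Pilrb2, Ptgs2, Rgs18, Tm4sf1 and Tph1), and 2 that had been past 2-fold changed sign. Tm4sf1 stood at -3.64 with a rule threshold of 2%, at -4.47 without the deepest cell of each library and at -2.28 without the 5% highest doublet scores, values set by the added CPM, since AD then had 0 UMIs and Ctrl a few. Rgs18 stood at 0.036 when thinned to 1000 UMIs, near no difference, and the cause was not tested. Over the alternatives, other than leaving out the AD cell richest in the gene, the log2 ratio lay between 3.64 and 4.36 for Fcer1a, 6.56 and 7.87 for Ctla2a, 1.64 and 1.80 for Csf2rb, 1.45 and 1.68 for Il1rl1 and -3.27 and -2.03 for Tpsg1. Leaving out cells under 1000 UMIs, the 5% highest doublet scores, or the AD cell with the most UMIs of a gene were choices made after seeing the data. The planned removal of cells called doublets was not run, since the caller marked none in AD. No paired analysis was possible because each group is 1 library. With 44 AD cells, a gene at 0 there is only limited to 20.5 CPM by 3 UMIs.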
